A study of Mus musculus with 12 samples.

Results

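The genes of glucose breakdown and lactate movement were followed in the retinas of mice with experimental optic neuritis, from the hexokinases through glycolysis to lactate dehydrogenase, the monocarboxylate and glucose transporters and the entry of pyruvate into mitochondria. Members were taken by symbol: 37 symbols matched 38 of the 54532 gene entries of the count tables, because Aldoa has a second, small entry. The low-count filter kept 37 of the 38 entries, and Pdk4, with 88 counts over all libraries, was not tested. The groups were SHAM (sham control), MOG (immunized with MOG35-55 peptide, a fragment of myelin oligodendrocyte glycoprotein, to induce experimental autoimmune encephalomyelitis, EAE, with optic neuritis), GB20 (immunized, then needled at the acupoint GB20) and GV16 (immunized, then needled at the control acupoint GV16). All were female wild type C57BL/6 mice aged 13 weeks, and each group had 3 libraries of retina, 12 in all. Immunization included complete Freund's adjuvant and pertussis toxin, and needling was done under xylazine and ketamine. Whether SHAM mice received the adjuvant, and whether SHAM and MOG mice were anesthetized, is not stated, so needling and anesthesia cannot be told apart in the needled groups. A group held 2 or 3 mice in every one of 3 runs of the experiment, and whether 1 library pools the mice of a run is not said.

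Hexokinases attach phosphate to glucose and so commit it to the cell. Phosphofructokinase sets the pace of the steps that follow, pyruvate kinase ends the pathway, and lactate dehydrogenase turns pyruvate into lactate. Lactate leaves or enters cells through proton-coupled transporters of the Slc16a family, some of which have Bsg as a chaperone. It also enters through the sodium-coupled transporter Slc5a8. The retina is known for making lactate even in the presence of oxygen, a trait of its photoreceptors, and lactate is thought to pass between photoreceptors, Müller cells and the pigment epithelium.

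Of the 37 tested genes, Hkdc1 and Slc5a8 were called by edgeR in MOG vs. SHAM and again in each needled group against MOG. Hkdc1, a minor hexokinase, rose 2.12-fold in MOG and fell by 63.2% in GB20 and by 58.6% in GV16 relative to MOG. Slc5a8 moved the other way: it fell by 39.2% in MOG and was 1.55-fold higher in GB20 and 1.53-fold higher in GV16 than in MOG. In the main edgeR fit (low-count filter, no replicate block), no other gene of the list was called in any of the 6 comparisons between groups. Other settings added calls, among them Hk2, Ldhb and Mpc2 in MOG vs. SHAM with edgeR and no low-count filter.

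Hkdc1 lies at chr10:62383137-62422491 and Hk1 at chr10:62268855-62379908, both on the minus strand of GRCm38, so that 3228 bases separate the end of Hkdc1 from the start of Hk1. The pair shared no exon, and their transcripts shared no stretch as long as the shorter reads of the study, so that their reads could be told apart. Part of the exon sequence of Hk1 (1.84%) overlaps the antisense gene Hk1os. The longest run common to both is shown because it is the longest stretch that could not tell them apart. It covers 26 bases of coding sequence, in exon 14 of 18 of Hkdc1 (chr10:62395196-62395221) and in exon 6 of 18 of an Hk1 transcript (chr10:62296037-62296062).
Hkdc1 and Hk1: gacacagtggggaccatgatgacctg

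The promoters of Hkdc1, Slc5a8 and Hk2 are shown because these are the called genes and the hexokinase that moved next most. Each is the 250 bases before the transcription start from RefSeq (GRCm38.p6), and capitals mark the core letters of the hypoxia-response motif, ACGTG or GCGTG on either strand, searched because glycolytic genes are known targets of that response. Promoters were found for 34 of the 37 symbols and not for Slc16a7, Bsg and Slc2a3.
Hkdc1 (chr10:62422458-62422707, minus strand): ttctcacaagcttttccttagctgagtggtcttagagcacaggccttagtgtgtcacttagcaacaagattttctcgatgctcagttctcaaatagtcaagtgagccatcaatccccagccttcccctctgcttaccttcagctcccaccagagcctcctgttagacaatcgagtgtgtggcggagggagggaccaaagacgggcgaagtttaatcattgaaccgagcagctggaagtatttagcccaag
Slc5a8 (chr10:88885742-88885991, plus strand): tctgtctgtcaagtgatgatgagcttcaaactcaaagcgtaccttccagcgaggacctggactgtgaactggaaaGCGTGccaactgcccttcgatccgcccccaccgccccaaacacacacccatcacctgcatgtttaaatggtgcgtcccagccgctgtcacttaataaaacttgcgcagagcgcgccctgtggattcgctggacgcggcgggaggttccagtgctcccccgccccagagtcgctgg
Hk2 (chr6:82774455-82774704, minus strand): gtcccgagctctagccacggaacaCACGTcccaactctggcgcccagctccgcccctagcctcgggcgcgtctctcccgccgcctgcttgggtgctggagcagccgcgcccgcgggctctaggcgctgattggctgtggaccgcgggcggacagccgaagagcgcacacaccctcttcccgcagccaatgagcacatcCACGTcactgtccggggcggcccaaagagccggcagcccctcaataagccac
The Hkdc1 window held 0 matches, the Slc5a8 window 1 and the Hk2 window 2. The motif was in 39 of 54 windows of the members (72.2%) and in 38.6% of all 32851 windows of this length. The members' windows were richer in G and C, with a median of 59.8% against 52.4% over all windows. The letters CACGTG (the E-box, which overlaps the motif above) were in 6 of the 54 windows (11.1%) and in 6.02% of all windows, and in none of those printed. A match is a description of the letters and not of a bound site.

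Levels spanned a wide range per length. FPKM counts fragments relative to gene length and library size, and was used here to compare genes. That length was close to the merged length of all annotated exons of a gene, so the values depend on the annotation. In FPKM, Aldoa (679), Pkm (507), Bsg (379), Eno1 (342) and Ldha (322) had the highest means over 12 libraries. Hkdc1 (2.33), Slc5a8 (1.79), Slc16a7 (1.53), Slc16a8 (1.52) and Pfkfb1 (0.629) had the lowest among those tested. The called genes were therefore among the scarcest of the pathway: Hkdc1 took 2444 counts over the 12 libraries and Slc5a8 took 1945, against 168887 for Hk1 and 48876 for Slc16a1. Slc16a7, with 11839 bases of exon, lay below Slc5a8 (5331 bases) in FPKM but took more counts, 3704. The shares of summed FPKM given below depend on the same lengths. Total counts per library ran from 15860278 to 19194280.

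**Figure D1:**
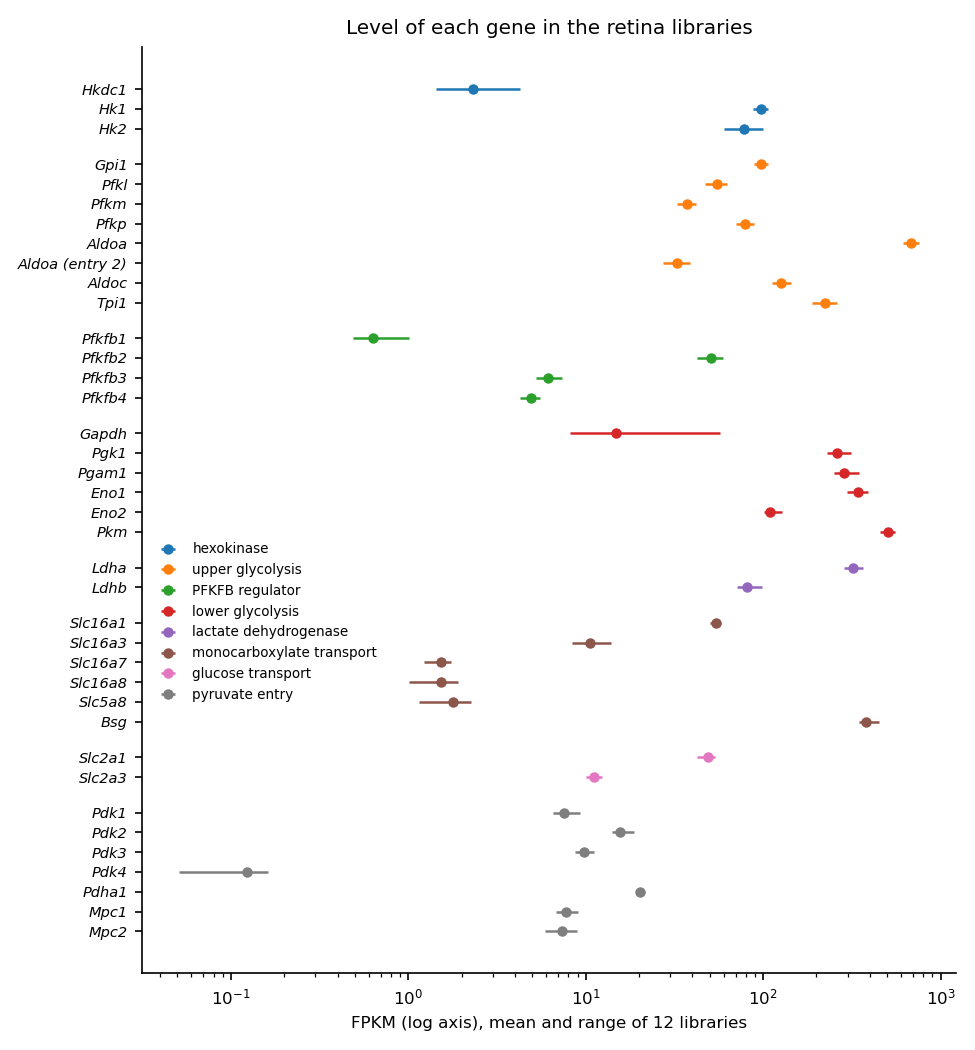
Mean FPKM of each of the 38 gene entries (points) with the range over 12 libraries (lines), on a log axis and grouped by role. Hkdc1 and Slc5a8 lie near the low end, with means of 2.33 and 1.79, while Aldoa has a mean of 679.

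Hkdc1 was compared with the other hexokinases to ask whether immunization and needling moved the whole enzyme class. In CPM (counts relative to the TMM-scaled library size, a unit for comparing 1 gene between libraries), Hkdc1 stood at 10.2, 9.88 and 10.2 in the 3 SHAM libraries and at 21.4, 20.8 and 22.1 in MOG. It stood at 7.47, 8.7 and 7.49 in GB20 and at 8.26, 8.04 and 10.3 in GV16. All MOG libraries lay above all others, the libraries of GB20 lay below those of SHAM, and those of GV16 overlapped SHAM. The log2 fold change was 1.08 (SE 0.115, edgeR adjusted p = 6.46e-06) in MOG vs. SHAM. It was -1.44 (SE 0.118, edgeR adjusted p = 3.53e-07) in GB20 vs. MOG and -1.27 (SE 0.118, edgeR adjusted p = 1.87e-06) in GV16 vs. MOG. These comparisons share the MOG libraries. Relative to SHAM, the log2 fold change was -0.36 in GB20 (SE 0.124, edgeR adjusted p = 0.301) and -0.19 in GV16 (SE 0.123, edgeR adjusted p = 0.609). The needling sites differed by -0.17 (GB20 vs. GV16, SE 0.126, edgeR adjusted p = 1), and their libraries overlapped. The calls in MOG vs. SHAM and in both needled groups against MOG held under all 23 alternative settings of each comparison.

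Hk1, the broadly expressed hexokinase of neurons, stood at 774, 790 and 754 CPM in SHAM, 916, 789 and 839 in MOG, then 798, 871 and 861 in GB20 and 899, 878 and 855 in GV16. Its MOG and SHAM libraries overlapped, and the log2 fold change was 0.13 (SE 0.0735, edgeR adjusted p = 0.45). The Hk1 libraries of both needled groups lay above SHAM without overlap and without a call. The log2 fold change against SHAM was 0.13 in GB20 (SE 0.0735, edgeR adjusted p = 0.671) and 0.18 in GV16 (SE 0.0735, edgeR adjusted p = 0.337). Hk2, an inducible hexokinase that photoreceptors carry, stood at 384, 414 and 364 CPM in SHAM, 601, 459 and 465 in MOG, then 458, 569 and 468 in GB20 and 474, 410 and 552 in GV16. The MOG libraries of Hk2 lay above the SHAM libraries, at a log2 fold change of 0.39 (SE 0.119, edgeR adjusted p = 0.15), which did not pass. The same Hk2 difference passed in 3 of 23 alternatives. These were DESeq2 over 12 libraries (adjusted p = 0.0438), DESeq2 over the 6 libraries compared (adjusted p = 0.0165) and edgeR with no low-count filter (adjusted p = 8.04e-05). It passed in 0 of the 12 edgeR fits that left a library out, where the log2 fold change ran from 0.25 to 0.47. Against MOG, Hk2 differed by -0.03 in GB20 (SE 0.119, edgeR adjusted p = 0.961) and by -0.087 in GV16 (SE 0.119, edgeR adjusted p = 0.998). Both signs turned when single libraries were left out. Against SHAM the values were 0.36 in GB20 (edgeR adjusted p = 0.29) and 0.31 in GV16 (edgeR adjusted p = 0.338), so the Hk2 levels of the needled libraries stayed near those of MOG while Hkdc1 did not.

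**Figure D2:**
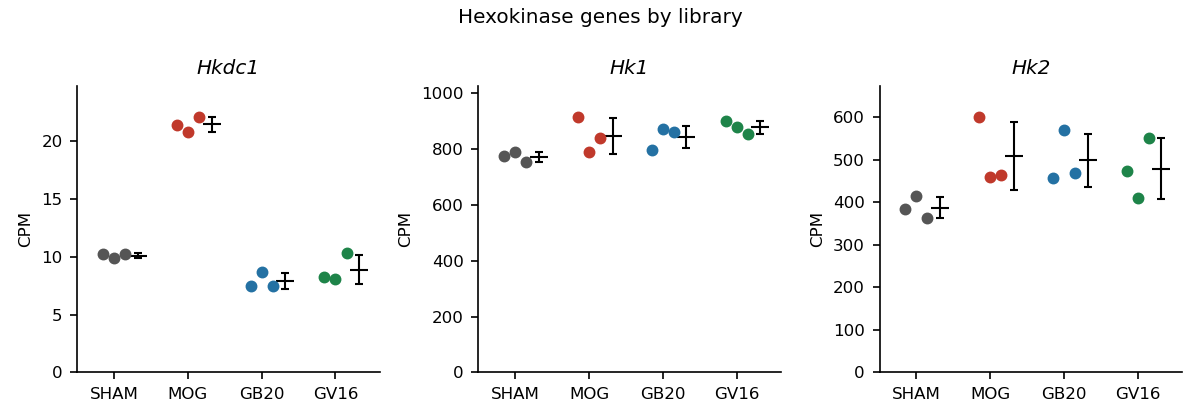
CPM of Hkdc1, Hk1 and Hk2 in each library (points) with the mean and SD of 3 libraries per group (black bars), on axes that start at 0. Hkdc1 reaches 20.8 to 22.1 in MOG and stays at 10.3 or less elsewhere, while Hk1 and Hk2 overlap between MOG and both needled groups.

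Per length, Hkdc1 made up 1.25% ± 0.071 (SD, n = 3) of the summed hexokinase FPKM in SHAM. Its share was 2.23% ± 0.231 in MOG, 0.836% ± 0.024 in GB20 and 0.932% ± 0.0858 in GV16. Hk1 took 50.6 to 59.4% in every library and Hk2 took 39.7 to 47.9%. The log2 ratio of Hkdc1 to the sum of Hk1 and Hk2 was 0.84 higher in MOG than in SHAM. The difference of GB20 from MOG was -1.43 and that of GV16 from MOG was -1.27. The libraries did not overlap in any of these, and the exact 2-sided permutation test gave p = 0.1, the smallest that 3 against 3 libraries allow (adjusted p = 0.1 over 6 ratio tests).

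Slc5a8 was compared with the Slc16a transporters to ask the same of lactate movement. Slc5a8 lies at chr10:88885992-88929515 on the plus strand and shared no stretch of read length with another gene. It stood at 10.3, 10.6 and 12.2 CPM in SHAM, 7, 6.21 and 6.9 in MOG, then 10.5, 10.9 and 9.81 in GB20 and 9.75, 10.1 and 10.9 in GV16. All MOG libraries lay below all others, and the other groups overlapped. The log2 fold change was -0.72 (SE 0.126, edgeR adjusted p = 0.00287) in MOG vs. SHAM, and this call held under all 23 alternatives. It was 0.63 (SE 0.126, edgeR adjusted p = 0.0283) in GB20 vs. MOG and 0.61 (SE 0.127, edgeR adjusted p = 0.0499) in GV16 vs. MOG, both against the same MOG libraries.

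The higher Slc5a8 level of the needled groups lay near the threshold. In GB20 vs. MOG the call was lost without any 1 of the MOG or GB20 libraries: the edgeR adjusted p became 0.097, 0.185 or 0.112 without MOG library 1, 2 or 3 and 0.114, 0.141 or 0.0733 without GB20 library 1, 2 or 3. In GV16 vs. MOG it was lost in 16 of 23 alternatives, with adjusted p from 0.124 to 0.36 without any 1 of the MOG or GV16 libraries. It was also lost there without SHAM library 1 (0.0683) and without GB20 library 1, 2 or 3 (0.0734, 0.0661 and 0.0665). The fold change kept its sign in each of these. Relative to SHAM, Slc5a8 differed by -0.085 in GB20 (SE 0.12, edgeR adjusted p = 0.914) and by -0.11 in GV16 (SE 0.121, edgeR adjusted p = 0.805). The needling sites differed by 0.022 (GB20 vs. GV16, SE 0.122, edgeR adjusted p = 1).

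The Slc16a genes gave no call. Slc16a1, the most widely used lactate transporter, stood at 239, 247 and 237 CPM in SHAM, 247, 225 and 244 in MOG, then 249, 252 and 241 in GB20 and 226, 260 and 230 in GV16. Slc16a3, the transporter of strongly glycolytic cells, stood at 55, 65.3 and 46.2 CPM in SHAM, 68.3, 47.9 and 61.7 in MOG, then 75.2, 58.6 and 51 in GB20 and 52.5, 44.9 and 52.7 in GV16. For both genes every group overlapped every other.
Slc16a7, a high-affinity transporter of neurons, stood at 20.9, 14.6 and 18.1 CPM in SHAM, 19.7, 18.9 and 19.8 in MOG, then 19.1, 18.1 and 17.8 in GB20 and 17.3, 16.1 and 18.9 in GV16. Slc16a8, the lactate transporter of the pigment epithelium, stood at 3.69, 3.41 and 3.44 CPM in SHAM, 3.47, 4.18 and 3.12 in MOG, then 3.35, 4.07 and 2.31 in GB20 and 2.79, 4.37 and 3.53 in GV16. The SHAM and MOG libraries overlapped for both. Bsg, a chaperone for some transporters of this family, stood at 709, 827 and 649 CPM in SHAM, 715, 635 and 672 in MOG, then 731, 686 and 689 in GB20 and 650, 712 and 638 in GV16, with overlap between SHAM and MOG. The log2 fold changes of MOG vs. SHAM were -0.015 for Slc16a1 (SE 0.071), 0.10 for Slc16a3 (SE 0.172), 0.12 for Slc16a7 (SE 0.113), 0.03 for Slc16a8 (SE 0.216) and -0.11 for Bsg (SE 0.0843), with edgeR adjusted p from 0.602 to 0.97. The signs of Slc16a1, Slc16a3 and Slc16a8 turned when single libraries were left out, and that of Slc16a1 also under a gene length correction.

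**Figure D3:**
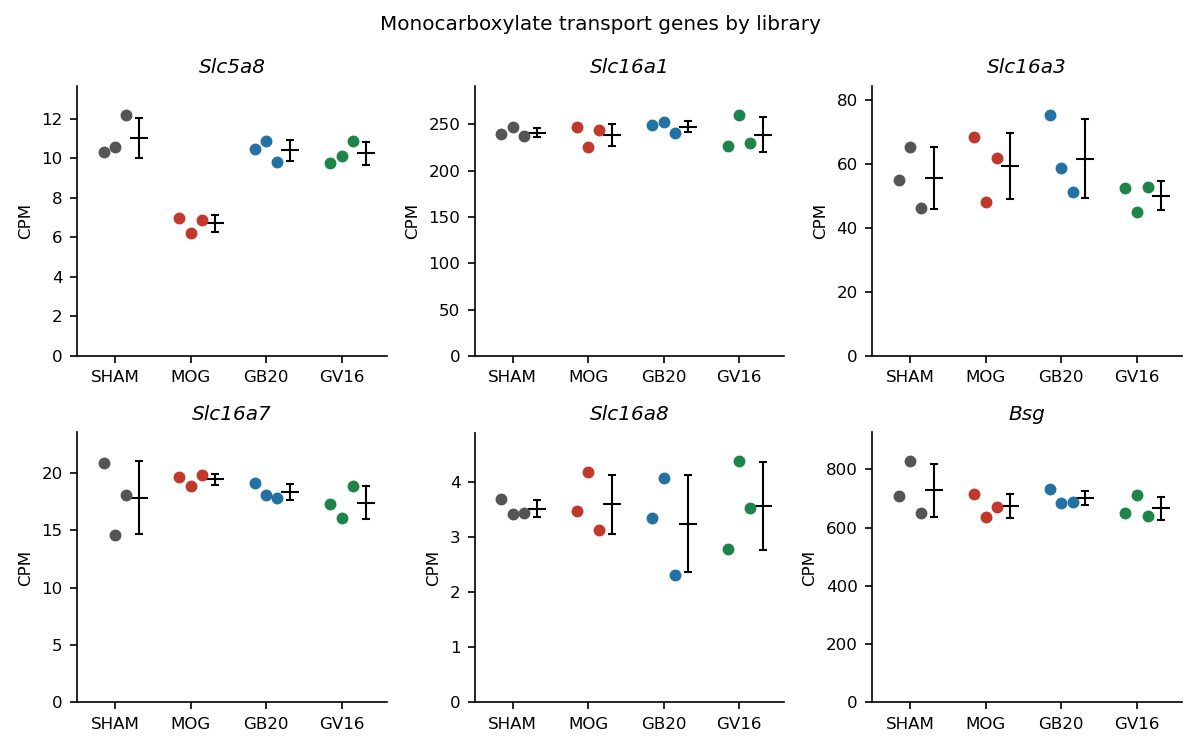
CPM of Slc5a8, the 4 Slc16a genes and Bsg in each library (points) with the mean and SD of 3 libraries per group (black bars), on axes that start at 0. Slc5a8 lies at 7 or less in MOG and at 9.75 or more elsewhere, and the other panels show overlapping SHAM and MOG libraries.

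Per length, Slc5a8 made up 2.96% ± 0.353 (SD, n = 3) of the summed FPKM of the 5 transporter genes in SHAM, 1.81% ± 0.0139 in MOG, 2.7% ± 0.0998 in GB20 and 2.82% ± 0.219 in GV16. Slc16a1 took 74.6 to 81.2% in every library. The log2 ratio of Slc5a8 to the summed Slc16a genes differed by -0.72 in MOG vs. SHAM, and relative to MOG it differed by 0.59 in GB20 and 0.65 in GV16. The libraries did not overlap in any of these, and each exact 2-sided permutation test gave p = 0.1, again the smallest that the design allows.

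**Figure D4:**
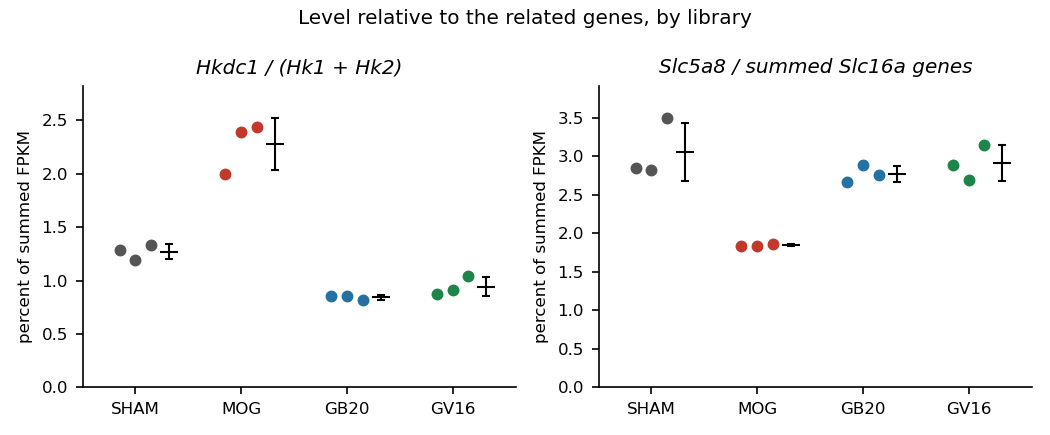
FPKM of Hkdc1 as a percent of Hk1 plus Hk2 (left) and of Slc5a8 as a percent of the summed Slc16a genes (right), by library (points) with the mean and SD of 3 libraries per group (black bars). Hkdc1 lies at 2 to 2.44% in MOG against 0.815 to 1.33% elsewhere, and Slc5a8 at 1.83 to 1.86% in MOG against 2.67 to 3.49% elsewhere.

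In MOG vs. SHAM the 2 calls were 5.41% of the 37 genes, against 1.34% of the 18299 genes tested. With groups that do not overlap counted instead, 9 of 37 genes (24.3%) stood apart, against 16.2% of all genes. Of these, Hkdc1, Hk2 and Pfkp lay higher in MOG, and 6 (16.2%) lay lower, against 8.34% of all genes. An unadjusted p under 0.05 was found for 11 of 37 (29.7%) and for 13% of all genes. The median log2 fold change of the 37 genes was -0.039, and that of all genes was -0.0023. The members were chosen with earlier results of these data known, so these shares describe the list and do not test it.

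In the upper steps of glycolysis, 0 of 8 entries were called in MOG vs. SHAM, and their log2 fold changes ran from -0.23 to 0.20 with a median of -0.042. The 3 phosphofructokinase subunit genes did not share a direction. Pfkm, the muscle-type subunit, had the largest difference of the group, at 141, 141 and 134 CPM in SHAM and 128, 111 and 115 in MOG. It stood at 123, 128 and 122 in GB20 and 129, 113 and 124 in GV16, so all 9 libraries of immunized mice lay below SHAM. The log2 fold change in MOG was -0.23 (SE 0.072, edgeR adjusted p = 0.134). Pfkp, the platelet-type subunit, ran from 963 to 1095 CPM in SHAM and from 1132 to 1202 in MOG without overlap, at 0.20 (SE 0.0783, edgeR adjusted p = 0.274). Pfkp, Eno2, Pdk2 and Mpc1 are named here for their groups not overlapping and so were chosen after their values were seen. Per length, Pfkp made up 43.5% ± 3.54 of the 3 subunits in SHAM and 49% ± 2.47 in MOG, and Pfkm 23.8% ± 0.527 and 19.9% ± 0.804 (SD, n = 3). Gpi1, Pfkl, Aldoa, Aldoc and Tpi1 overlapped between MOG and SHAM.

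The 4 Pfkfb genes, whose enzymes make and break the activator of phosphofructokinase, gave log2 fold changes from -0.24 to 0.15 in MOG vs. SHAM and 0 calls. Pfkfb1 had the largest of these at the lowest level, with 2.48, 2.47 and 3.16 CPM in SHAM, 1.96, 2.09 and 2.82 in MOG, then 4.12, 2.43 and 2.01 in GB20 and 2.61, 1.99 and 2.42 in GV16. All groups overlapped, and its log2 fold change was -0.24 (SE 0.258, edgeR adjusted p = 0.722). Pfkfb2 was the main gene of the family, with 76.2 to 84.9% of its summed FPKM in every library, but 14.3% of its transcript windows recur in other genes, Yod1 among them, so its counts are uncertain.

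In the lower steps, 0 of 6 genes were called, with log2 fold changes from -0.56 to 0.014 and a median of -0.07. Gapdh, which follows aldolase and triose phosphate isomerase, gave the largest and the least certain value. It stood at 34.1, 62.5 and 85.4 CPM in SHAM, 38.6, 42.5 and 42.4 in MOG, then 38.2, 42.3 and 236 in GB20 and 35.6, 36.6 and 47.3 in GV16, so that GB20 library 3 stood apart from the 11 others. Its log2 fold change in MOG was -0.56 (SE 0.704, edgeR adjusted p = 0.782), and the groups overlapped. In GB20 vs. MOG it was 1.35 (SE 0.699, edgeR adjusted p = 0.666), again with overlap. At a mean of 14.9 FPKM, Gapdh lay far below its neighbours Tpi1 (222) and Pgk1 (261). Of its transcript windows of read length, 19.4% recur in 61 other genes, 58 of them pseudogenes, so its counts are uncertain, and the part of this in its level was not tested. Shared windows also make up 50.5% of Pgk1, 33% of Pgam1, 18.3% of Eno1 and 9.11% of Pkm. Eno2, the neuronal enolase, shared none, and ran from 548 to 609 CPM in SHAM and from 488 to 521 in MOG without overlap, at -0.21 (SE 0.0714, edgeR adjusted p = 0.191).

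The lactate dehydrogenases form the branch to lactate. Ldha, whose subunit favours lactate formation, ran from 963 to 1190 CPM in SHAM and from 957 to 1135 in MOG. Ldhb, whose subunit favours the use of lactate, stood at 143, 156 and 129 in SHAM, 124, 113 and 114 in MOG, then 127, 133 and 124 in GB20 and 127, 127 and 119 in GV16. The MOG libraries of Ldhb lay below SHAM, and its log2 fold change of -0.29 (SE 0.0742, edgeR adjusted p = 0.0553) did not pass. It passed in 5 of 23 alternatives, among them DESeq2 over 12 libraries (adjusted p = 0.0206) and edgeR without SHAM library 3 (adjusted p = 0.0127) or MOG library 1 (adjusted p = 0.0461). Ldhb made up 21.9% ± 0.21 of the summed FPKM of both genes in SHAM, 19.2% ± 0.687 in MOG, 19.3% ± 1.19 in GB20 and 20.1% ± 0.71 in GV16 (SD, n = 3).

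Of the glucose transporters, Slc2a3, the neuronal type, had the larger difference, at 83.1, 86.1 and 87.7 CPM in SHAM, 85.5, 73.2 and 79.9 in MOG, then 74.5, 78.8 and 86.5 in GB20 and 89.7, 80.4 and 79.5 in GV16. Its log2 fold change was -0.11 (SE 0.0769, edgeR adjusted p = 0.578), with overlap. Slc2a1 ran from 162 to 187 CPM in SHAM and from 151 to 177 in MOG.

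The genes of pyruvate entry gave 0 calls among 6 in the main edgeR fit. Mpc1 and Mpc2 are the subunits of the mitochondrial pyruvate carrier. Mpc2 stood at 62.1, 66.4 and 50.4 CPM in SHAM, 52.6, 43.9 and 48.2 in MOG, then 60, 53.8 and 51.7 in GB20 and 53.9, 56.4 and 51.6 in GV16. SHAM library 3 fell within the MOG range, and the log2 fold change was -0.30 (SE 0.094, edgeR adjusted p = 0.138). Without SHAM library 3 it was -0.41 and passed (edgeR adjusted p = 0.0154). Mpc2 also passed with no low-count filter (edgeR adjusted p = 0.0261). Mpc1 ran from 17.3 to 19 CPM in SHAM and from 14.4 to 15.9 in MOG without overlap, at -0.25 (SE 0.0999, edgeR adjusted p = 0.281), but 12.8% of its windows recur in other genes that together took 3850 counts against its own 3288. Pdk2, a kinase that turns off pyruvate dehydrogenase, ran from 52.8 to 59.6 CPM in SHAM and from 47.1 to 52.1 in MOG, at -0.16 (SE 0.0737, edgeR adjusted p = 0.343). Pdk4 was listed at 0.182 to 0.579 CPM. Pdk1, Pdk3 and Pdha1, a subunit of pyruvate dehydrogenase itself, overlapped between MOG and SHAM.

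**Figure D5:**
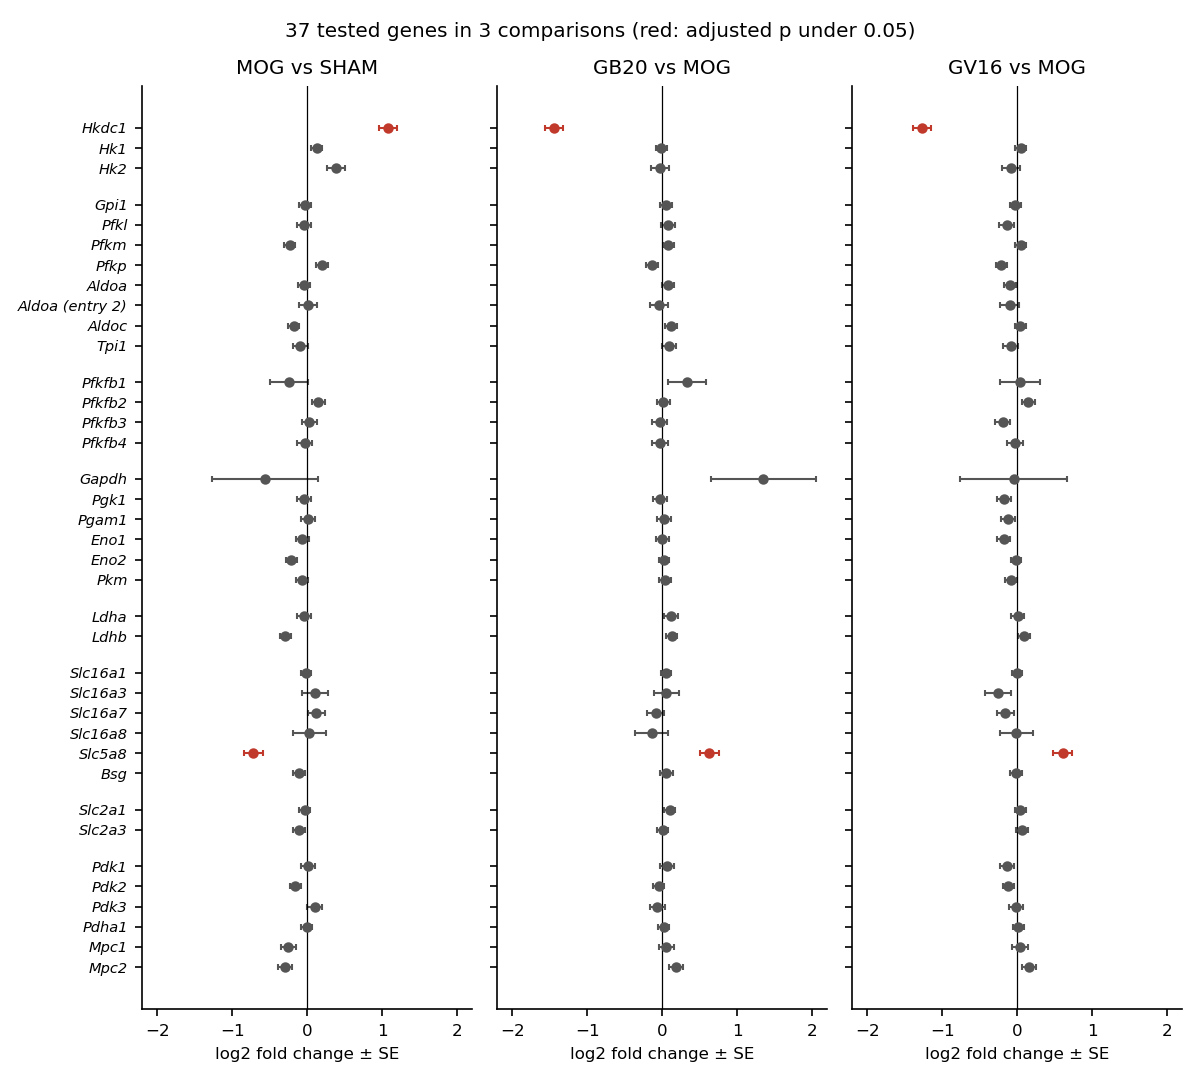
Log2 fold change with its SE (horizontal axis) of the 37 tested gene entries, with 1 panel each for MOG against SHAM, GB20 against MOG and GV16 against MOG and called genes in red. Hkdc1 and Slc5a8 are the called genes in each panel, with opposite signs, and Gapdh has the widest error (SE 0.704 in MOG vs. SHAM). In GB20 vs. MOG the uncalled Gapdh lies at 1.35 (SE 0.699), beyond Slc5a8 at 0.63.

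Against MOG, Hkdc1 and Slc5a8 were the calls in both needled groups. Since members were chosen with earlier results of these data known, the shares below describe the list and do not test it. In GB20 vs. MOG the 2 calls were 5.41% of the 37, against 0.24% of all genes. There 3 genes (8.11%) had groups that did not overlap, Ldhb being the third, against 15.7% of all genes. In GV16 vs. MOG the calls were again 5.41%, against 0.164% of all genes, and 4 genes (10.8%) did not overlap, against 12.6%. The other two were Pdk2 and Pfkp, both lower in GV16. In GB20 vs. GV16, 0 genes were called, against 0.00546% of all genes, and DESeq2 also called 0. An unadjusted p under 0.05 was found there for 4 genes (Aldoa, Eno1, Pdk1 and Pfkl, all higher in GB20), or 10.8% against 2.93% of all genes. Groups did not overlap for 3 (Aldoa, Pfkl and Pkm), or 8.11% against 8.34%. The FPKM of Gpi1, Pfkl, Aldoa, Tpi1, Pgk1, Pgam1, Eno1, Pkm and Ldha were also summed by library, and whether these genes moved together was not tested. The sum was 2811 to 2981 FPKM in GB20, 2571 to 2611 in GV16, 2638 to 3080 in SHAM and 2464 to 3083 in MOG. SHAM and MOG thus each covered most of the range of all libraries.

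Relative to SHAM, neither needled group had a call in the main edgeR fit. In GB20 vs. SHAM, 0 of 37 were called, against 0.344% of all genes, while DESeq2 called 1 (Hk2, adjusted p = 0.0274) with the 6 libraries and 0 with 12. An unadjusted p under 0.05 was found for 6 (16.2%), against 9.06% of all genes. Groups did not overlap for 7 (18.9%), against 12.7%, and 5 of these (13.5%) were lower in GB20, against 7.09%: Eno2, Hkdc1, Mpc1, Pdk2 and Pfkm. Hk1 and Hk2 were higher. In GV16 vs. SHAM, 0 were called, against 0.656%, while DESeq2 over 12 libraries called Pfkfb2 (adjusted p = 0.0479, higher) and Eno2 (adjusted p = 0.0496, lower). An unadjusted p under 0.05 was found for 10 (27%), against 10.9%. Groups did not overlap for 10 (27%), against 14.5%, and 9 of these (24.3%) were lower in GV16, against 7.6%, while Hk1 was higher. All 8 entries of the upper steps and all 6 of the lower steps had negative log2 fold changes in GV16 vs. SHAM, with medians of -0.14 and -0.22. Over all genes, 9329 of 18299 were negative. The signs are not independent, since the same libraries gave them all and 2 of the entries are Aldoa. These comparisons share the SHAM libraries with MOG vs. SHAM.

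Other genes around the pathway were read from lists of 94 genes, of which 84 were tested: other isoforms, other transporters, the pyruvate dehydrogenase complex, the pentose phosphate branch, glycogen and gluconeogenesis, NADH shuttles and regulators such as Hif1a. With all 12 libraries, 0 of them were called in any of the 6 comparisons by edgeR, limma-voom or DESeq2. Without SHAM library 3, edgeR called 1, Gapdhs, the sperm type of glyceraldehyde phosphate dehydrogenase, in MOG vs. SHAM and in GV16 vs. SHAM. An unadjusted p under 0.05 was found in MOG vs. SHAM for 8 (9.52%, against 13% of all genes), in GB20 vs. MOG for 5 (5.95% against 8%) and in GV16 vs. MOG for 3 (3.57% against 5.3%). The counts were 3 in GB20 vs. GV16 (3.57% against 2.93%), 8 in GB20 vs. SHAM (9.52% against 9.06%) and 10 in GV16 vs. SHAM (11.9% against 10.9%), so these shares lay below or near the background. All 8 tested genes of the pentose phosphate branch had negative log2 fold changes in MOG vs. SHAM, with a median of -0.11, as did 8 of 9 genes of the NADH shuttles, with a median of -0.14. Over all genes, 9245 of 18299 were negative, and the same libraries gave all of these signs.

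Cell type markers moved between the same groups. All 7 markers of retinal ganglion cells (RGC), the neurons whose axons form the optic nerve, were called lower in MOG vs. SHAM, and none of the 7 was at 0. Their summed level was 735 to 832 CPM in SHAM, 412 to 498 in MOG, 498 to 512 in GB20 and 387 to 564 in GV16, so every library of immunized mice lay below SHAM, needled or not. In these bulk samples fewer RGC and less RNA per cell cannot be told apart, and the part of this change in the lower values of Eno2, Ldhb, Pfkm and Slc5a8 was not tested. Markers of the pigment epithelium, the layer that carries Slc16a8, summed to 253 to 269 CPM in SHAM, 294 to 301 in MOG, 300 to 315 in GB20 and 279 to 338 in GV16, with 0 of 10 tested markers called. Of the Müller cell markers 1 of 6, Aqp4, the water channel of Müller cell endfeet, was called higher in MOG than in SHAM and lower in each needled group than in MOG, which are the directions of Hkdc1. The 6 summed to 3435 to 3651 CPM in SHAM, 3064 to 3445 in MOG, 3227 to 3457 in GB20 and 3339 to 3536 in GV16, so the sum was not higher in MOG. Of the gliosis markers 2 of 5 (Gfap and Serpina3n) were called higher in MOG, with sums of 124 to 143 CPM in SHAM, 182 to 202 in MOG, 173 to 208 in GB20 and 152 to 190 in GV16. Of the microglia markers 2 of 5 (C1qa and Csf1r) were called higher, with sums of 13.4 to 19.2 CPM in SHAM, 22.9 to 27.2 in MOG, 22.2 to 26.8 in GB20 and 24.7 to 26 in GV16. None of the gliosis or microglia markers was called in a needled group against MOG, and the part of these glial changes in the results for Hkdc1 and Slc5a8 was not tested. No marker of rods, cones, bipolar cells, amacrine cells or blood vessels was called, and the rod markers, at 52838 to 59307 CPM in every library, fit the labelled tissue. Blood vessel markers summed to 117 to 127 CPM in SHAM, 130 to 141 in MOG, 118 to 132 in GB20 and 124 to 139 in GV16. Cone markers summed to 1359 to 1547 CPM in SHAM, 1314 to 1362 in MOG, 1440 to 1501 in GB20 and 1307 to 1531 in GV16. The part of these sums in the results for Hkdc1 and Slc5a8 was not tested.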

How the data were processed

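Retinal RNA of 12 libraries had been enriched for poly(A) and sequenced in pairs. The authors aligned reads with HISAT2 2.0.5 to mm10 and counted them per gene with FeatureCounts; the deposited counts are whole numbers that were not normalized. FPKM values, which the authors made from count, gene length and depth, were deposited beside them. Neither the strand setting nor the treatment of multiply aligned reads is given in the sources used, so reads of antisense genes could not be told apart. Groups and replicate numbers came from the sample labels.

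Members and lists were chosen with earlier results of these data known. Names and coordinates came from GENCODE vM21 (GRCm38), which holds 54409 of 54532 identifiers. The main test was that of edgeR 4.0.16 in R 4.3.3: expression filter with 4 groups (18299 genes), TMM scaling, robust quasi-likelihood fit of all 12 libraries (8 residual degrees of freedom), 6 contrasts, Benjamini-Hochberg adjustment over all genes tested, and a call at an adjusted p under 0.05. Log2 ratios of FPKM were compared by exact 2-sided permutation (numpy 2.4.6). The libraries are biological replicates per the methods, but whether each holds 1 mouse is not stated, so p-values measure the spread between libraries. Chi-square per gene between libraries of 1 group was at least 3.03, so none was a duplicate. Alternatives were RLE scaling, no filter, DESeq2 1.42.0 (12 or 6 libraries), edgeR on 6 libraries, limma-voom (limma 3.58.1), a replicate block, a gene length correction, log2(FPKM + 1) and log2(FPKM + 0.1) with limma, and leaving out each library. Named were Hkdc1, Hk1, Hk2, Slc5a8, the 4 Slc16a genes, Bsg, each called member, and in each role the member with the largest log2 fold change in MOG vs. SHAM. The fits were tested on simulated data. A limit on false calls was set there for edgeR fits with the filter, and not for the unfiltered, DESeq2, limma-voom and FPKM fits. Recurring sequence was counted as transcript windows, as long as the shorter reads of the study, that recur in another gene. Figures were drawn with matplotlib 3.10.9.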

Additional observations from a re-analysis of the deposited data

How the results depend on the processing

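Each value was recomputed under 23 alternatives (9 for the ratios), and 708 of 759 recomputed log2 fold changes of single genes kept direction and side of the threshold, while 25 lost the call, 13 gained it and 13 turned sign. The number of genes called in MOG vs. SHAM was 5 with no filter on low counts and 4 with DESeq2 over 12 libraries, and 2 to 4 when a library was left out; Hkdc1 and Slc5a8 were among those called each time. In GB20 vs. MOG it was 1, Hkdc1, with log2(FPKM + 1), log2(FPKM + 0.1) and log2(FPKM + 1) without a filter, and 1 to 2 when a library was left out. In GV16 vs. MOG it was 1, Hkdc1, with limma-voom, DESeq2 or edgeR on 6 libraries and the 3 FPKM settings, and 1 to 2 when a library was left out. In GB20 vs. SHAM it was 1 (Hk2) with no filter and with DESeq2 on 6 libraries. In GV16 vs. SHAM it was 2 with no filter (Hk2 and Pfkfb2) and with DESeq2 over 12 libraries, and 0 to 1 when a library was left out, the 1 being Pfkfb2 without SHAM library 3 or GV16 library 1. The cause of these changes was not tested, except that 34538 genes entered without the filter.

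The replicate numbers were not taken to pair the samples, since neither the labels nor the methods tie a number to a run of the experiment. Of 18 same-numbered pairs of libraries from different groups, 9 had correlated deviations over 0.1. Their median was 0.10, against -0.048 for pairs with different numbers, and 9 of 12 libraries correlated best with their own number. These values hint at a pairing that the main fit left out. Over all genes in MOG vs. SHAM, edgeR called 404 with the replicate block and 245 without it. Among the members, the calls with the block were 3 in MOG vs. SHAM (Ldhb added at -0.28, edgeR adjusted p = 0.0162) and 2 in GV16 vs. SHAM (Pdk2 and Pfkfb2). The other comparisons kept their number of called members.

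Signs turned for differences near 0. Slc16a1 in MOG vs. SHAM was 0.011 with the gene length correction and -0.042 to 0.031 when a library was left out, Slc16a3 was -0.021 to 0.24 and Slc16a8 was -0.086 to 0.12. Hk2 ran from -0.14 to 0.11 in GB20 vs. MOG and from -0.20 to 0.052 in GV16 vs. MOG, and Slc5a8 from -0.016 to 0.069 in GB20 vs. GV16. In MOG vs. SHAM the SE was 0.216 for Slc16a8 with 703 counts in all and 0.071 for Slc16a1 with 48876.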
